A study of Mus musculus with 2 samples.

Results

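Progression through mitosis depends on a small set of kinases, checkpoint proteins and chromosome-binding complexes, and 57 mouse genes of this machinery were examined in the embryonic forebrain. They were chosen by gene symbol, a rule that uses no measured value, although earlier results of these data were known. They were matched to the deposited tables through GENCODE M21 on GRCm38, the assembly also called mm10. All 57 were found, out of 21473 protein-coding genes measured. By role they were 10 mitotic kinases, cyclins and phosphatases, 5 spindle checkpoint genes, 4 genes of anaphase onset, 4 of the chromosomal passenger complex, 11 of the centromere and kinetochore, 9 of the spindle and cytokinesis, 5 condensin subunits, 2 genes of chromosome structure, 5 cohesin subunits and 2 mitotic transcription factors.

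The measurements came from forebrain of B6NCrl mouse embryos at day 13.5, healthy and pooled over both sexes, with no treatment or genotype compared. RNA over 200 bases was sequenced as total RNA in 2 libraries, each from 10 ng with added spike-in RNA. They are labelled biological replicates 1 and 2, from separate tissue samples that share a donor code. They form a single group, so no condition could be tested and there are no p-values. Errors are SDs over both libraries (n = 2), which may be partly technical. Estimated counts came to 35378462 in replicate 1 and 36793284 in replicate 2. The 57 genes took 269225 and 279448 of these, or 0.776% and 0.780% of the counts on mouse genes. Each of them had between 446 and 18097.5 counts per library.

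The tissue label was checked with marker lists. Of 7 forebrain markers, all 7 reached 10 TPM (a level normalised for transcript length and library size) in both libraries, with a median of 66.9 TPM and Dlx1 highest at 234 TPM. Of 8 Hox genes of the hindbrain and spinal cord, all 8 stayed under 1 TPM, and Hoxb3 and Hoxb4 had no count in either library. The progenitors that divide at the ventricular surface were represented by 7 markers with a median of 79.7 TPM, led by Fabp7 at 1227 TPM. Postmitotic neurons were represented by 6 markers with a median of 309 TPM, led by Tubb3 at 1116 TPM. In such a bulk sample, fewer cells of a type and less RNA per cell cannot be told apart.

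As background, the ventricular zone of the forebrain holds progenitors whose nuclei move to the ventricular surface to divide. Entry into mitosis is driven by the kinase Cdk1 bound to cyclins, chromosomes are compacted by condensin and held in pairs by cohesin, and kinetochores built on the centromere attach them to spindle microtubules. Unattached kinetochores feed the spindle checkpoint, which holds back Cdc20 and the anaphase promoting complex until all chromosomes are attached. Securin and the cyclins are then degraded, separase opens cohesin, and the cleavage furrow divides the cell. Many of these genes are transcribed mainly in G2 and M phase, through promoters with a cell cycle genes homology region (CHR) near the transcription start and CCAAT boxes that bind the factor NF-Y. Cohesin also shapes chromatin in cells that no longer divide.

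Promoter sequences were available for 47 of the 57 genes as RefSeq windows on GRCm38.p6, from 250 bases before to 50 after the annotated start. Aurkb, Ccna2, Cdc25c, Foxm1, Incenp, Rad21, Smc4, Spc24, Stag2 and Tpx2 had no matching entry. The 9 windows printed here run from 120 bases before to 30 after the start, 5′ to 3′ on the strand of the gene. They show 4 of the 5 highest genes (Ube2c, Cdk1, Ccnb1 and Cdc20), the second B-type cyclin, the midzone gene Prc1, the lowest gene Espl1, and the cohesin genes Smc1a and Smc3. Capitals mark TTTGAA or TTCGAA (the CHR letters) and CCAAT, on either strand, so that TTCAAA and ATTGG are the same letters read on the other strand.
Ube2c (chr2:164769809-164769958, plus strand): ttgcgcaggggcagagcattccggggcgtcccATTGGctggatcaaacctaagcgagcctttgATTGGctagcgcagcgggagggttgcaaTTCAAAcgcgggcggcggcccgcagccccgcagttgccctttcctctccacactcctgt
Cdk1 (chr10:69352883-69353032, minus strand): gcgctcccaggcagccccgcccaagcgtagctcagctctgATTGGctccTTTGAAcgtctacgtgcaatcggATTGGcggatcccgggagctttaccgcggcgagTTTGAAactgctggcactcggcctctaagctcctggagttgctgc
Cdc20 (chr4:118437314-118437463, minus strand): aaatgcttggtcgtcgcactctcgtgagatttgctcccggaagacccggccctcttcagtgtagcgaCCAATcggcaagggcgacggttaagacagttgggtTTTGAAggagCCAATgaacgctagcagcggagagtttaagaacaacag
Ccnb1 (chr13:100786457-100786606, minus strand): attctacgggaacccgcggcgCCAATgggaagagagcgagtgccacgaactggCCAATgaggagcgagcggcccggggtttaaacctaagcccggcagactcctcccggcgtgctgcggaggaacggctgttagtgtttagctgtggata
Ccnb2 (chr9:70421525-70421674, minus strand): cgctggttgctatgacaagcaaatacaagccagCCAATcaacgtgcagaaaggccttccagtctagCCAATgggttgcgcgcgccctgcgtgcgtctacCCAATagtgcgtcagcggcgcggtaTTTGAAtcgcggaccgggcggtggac
Prc1 (chr7:80294331-80294480, plus strand): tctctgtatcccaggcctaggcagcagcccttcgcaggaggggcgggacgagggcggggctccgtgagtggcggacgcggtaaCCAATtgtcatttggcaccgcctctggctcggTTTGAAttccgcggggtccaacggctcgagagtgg
Espl1 (chr15:102296173-102296322, plus strand): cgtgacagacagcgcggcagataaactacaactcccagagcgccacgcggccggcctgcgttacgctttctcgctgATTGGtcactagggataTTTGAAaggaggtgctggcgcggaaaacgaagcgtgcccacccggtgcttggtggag
Smc1a (chrX:152016308-152016457, plus strand): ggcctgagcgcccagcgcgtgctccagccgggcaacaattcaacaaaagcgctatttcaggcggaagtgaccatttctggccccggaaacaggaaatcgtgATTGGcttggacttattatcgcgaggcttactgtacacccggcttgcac
Smc3 (chr19:53600276-53600425, plus strand): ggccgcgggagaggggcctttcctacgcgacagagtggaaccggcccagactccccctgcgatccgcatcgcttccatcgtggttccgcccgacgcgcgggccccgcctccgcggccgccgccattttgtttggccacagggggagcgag

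CHR letters lay close to the start in most of these promoters and were absent from those of Ccnb1, Smc1a and Smc3. In Cdk1, TTTGAA began 71 and 15 bases before the start, in Cdc20 18 bases before it, and in Prc1 5 bases before it. Ccnb2 had it from position 5 after the start, and Ube2c had it on the other strand, beginning 29 bases before the start. Ccnb1 had CCAAT letters beginning 99 and 67 bases before the start and no CHR letters in its whole window. Espl1, at the lowest level of all, carried the same pair of motifs as Prc1, with CCAAT letters from 44 and CHR letters from 27 bases before the start.

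Over the whole window, 31 of 47 genes (66%) held CHR letters, against 17.3% of 16521 protein-coding genes with a window. TTTGAA alone stood in 29 (61.7%), against 15.6% of all. From 100 bases before the start to 50 after it, 29 of 47 (61.7%) held CHR letters, against 6.95%, and 31 of 47 (66%) held CCAAT letters, against 24.9%. Within 50 bases of the start on either side the count was 28 of 47 (59.6%), against 4.26% of all promoters. CCAAT letters stood in 36 of 47 windows (76.6%), against 38.7% of all, and at least 2 copies in 20 of 47 (42.6%), against 13.2%. Both motifs were present in 29 of 47 (61.7%), against 7.18% of all promoters. In 10 of 47 (21.3%) neighbouring CCAAT letters began 30 to 36 bases apart, against 2.26%, a spacing chosen after the positions were seen. The E2F letters TTTGGCG or TTTCGCG were found in Cdca8, Cdk1 and Ncapd2, which is 3 of 47 (6.38%), against 3.01%. CCAAT and CHR letters can share a base, as they do in Cenpw.

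**Figure D1:**
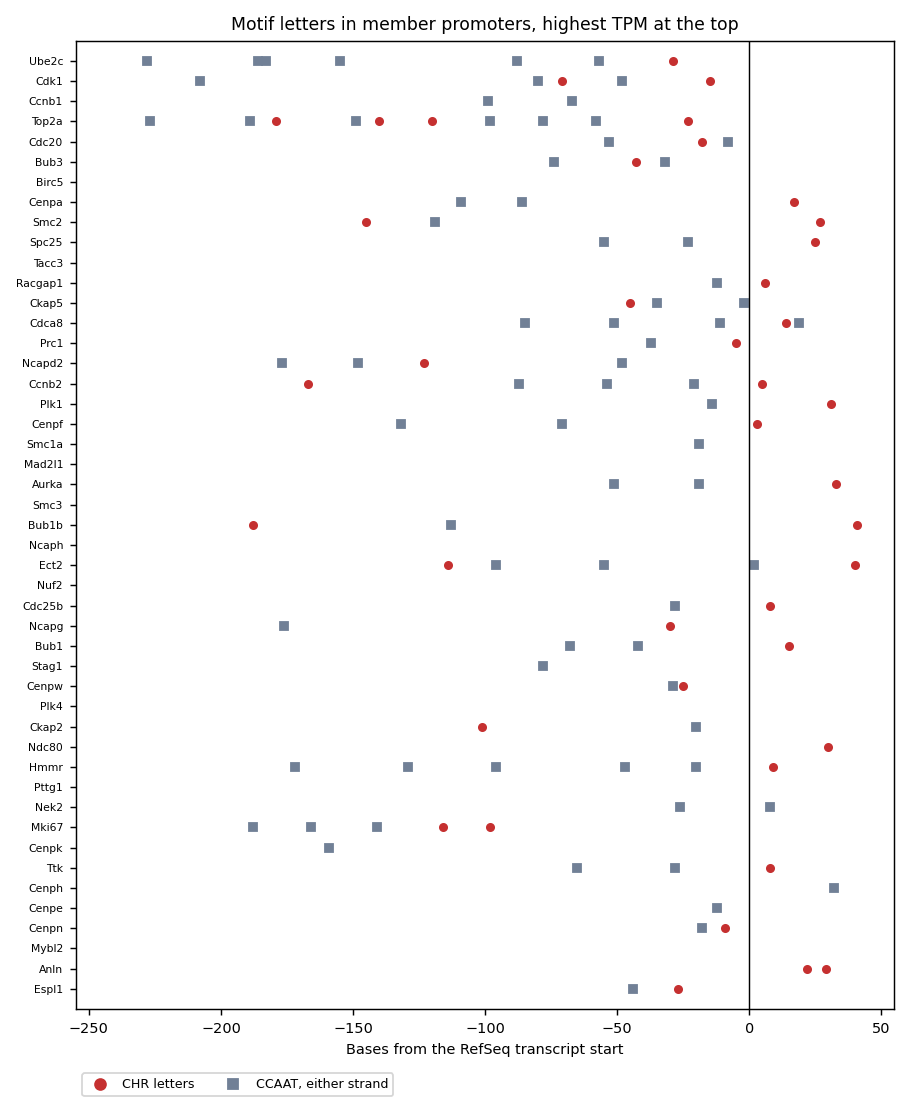
Positions of CHR letters (red circles) and CCAAT letters on either strand (grey squares) in the RefSeq promoter windows of 47 genes, in bases from the transcript start, with genes in order of mean TPM from the highest at the top. CHR letters lie within 50 bases of the start in 28 genes, and the 3 cohesin genes with a window (Smc1a, Smc3 and Stag1) have none.

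No CHR letters were found in 16 of the 47 windows. Among these were those of the 3 cohesin genes with a window, of which Smc1a and Stag1 held CCAAT letters. The others were those of Birc5, Ccnb1, Cenpe, Cenph, Cenpk, Mad2l1, Mybl2, Ncaph, Nek2, Nuf2, Plk4, Pttg1 and Tacc3. The letters stood in 66% of the 47 windows and in 17.3% of all promoters, and 3 windows are too few to tell if cohesin differs. The Stag1 window, at chr9:100643198-100643497, also lies inside the GENCODE gene, which begins at 100597798. The Cdca8 and Pttg1 windows reach only to 124937167 and 43426231, inside minus-strand genes that begin at 124939311 and 43426251. Those of Mad2l1, Mybl2 and Plk4 end before the GENCODE gene begins. Motif positions in all of these windows hold for the RefSeq start only. The 31 genes with CHR letters had a median of 98.95 TPM, between 11.7 and 408 TPM, and the 16 without had a median of 48.7 TPM, between 21.7 and 236 TPM, so the ranges overlapped. A match is a description of letters, and a missing match says only that the letters are not in this window.

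All 57 genes were well above the detection limit. Their median was 65.2 ± 2.38 TPM (SD of the library medians, n = 2), against a median of 3.92 TPM over all protein-coding genes. All 57 reached 10 TPM in both libraries, against 38.9% of protein-coding genes, and 20 reached 100 TPM in both, against 7.42%. By rank, 26 of the 57 lay in the highest 10% of protein-coding genes of the nuclear genome. The levels spanned a 34.9-fold range, from 408 TPM for Ube2c to 11.7 TPM for Espl1. The order of the genes was nearly the same in both libraries (Spearman's rho 0.995 across the 57 genes, which are not independent replicates), and the SD was at the median 3.67% of the mean, against 5.80% over all protein-coding genes at 10 TPM or more.

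TPM depends on which transcript models receive the reads, since a read on a short model counts for more than a read on a long one. A second scale, added after the data were seen, divides all reads of a gene by the length of its longest coding model and is called the rescaled level here. It assumes that every read came from that model, so it is a low bound where a shorter model is the real one.

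**Figure D2:**
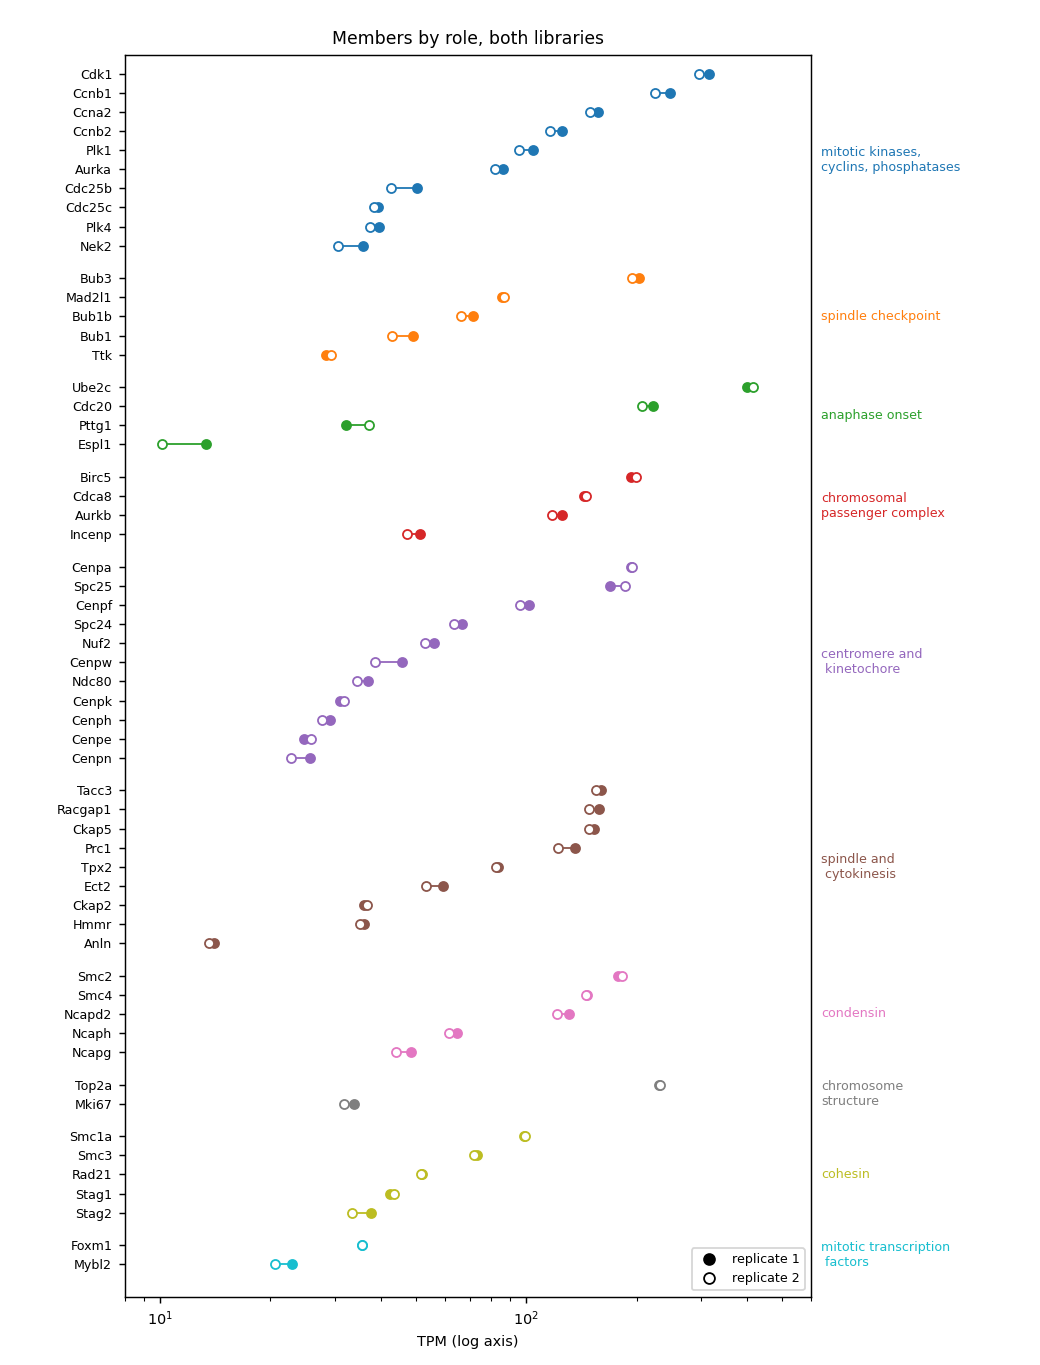
TPM of the 57 genes on a log axis in replicate 1 (filled circles) and replicate 2 (open circles), grouped by role and joined by a line for each gene. The libraries lie close together for most genes, Ube2c is highest at 400.02 and 416 TPM, and Espl1 is lowest at 13.3 and 10.1 TPM with the widest gap.

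Among kinases, cyclins and phosphatases, Cdk1 and its cyclins were the most abundant on TPM. Cdk1, the kinase that drives entry into mitosis (chr10:69335146-69352938, minus strand), had 315 and 297 TPM in replicates 1 and 2. Its main partner cyclin B1, Ccnb1 (chr13:100778650-100786570, minus strand), had 247 and 224 TPM, and cyclin A2, Ccna2, which acts in S phase and early mitosis, had 157 and 149 TPM. Ccnb1 exceeded Ccna2 in both libraries on either scale. Cdk1 exceeded both on TPM, but its rescaled level of 89.7 and 87.5 TPM was below the rescaled 236 and 213 TPM of Ccnb1 and 152.5 and 146.4 TPM of Ccna2. Below Cdk1, Ccnb1 and Ccna2 on TPM came Ccnb2, the polo kinase Plk1 and the spindle pole kinase Aurka. Then came the Cdk1-activating phosphatases Cdc25b and Cdc25c and the centriole kinase Plk4. Means ran from 121 TPM for Ccnb2 to 38.5 TPM for Plk4. Nek2, a kinase of centrosome separation, was lowest with 35.7 and 30.5 TPM. The class median was 92.0 ± 4.31 TPM, and all 10 genes were higher in replicate 1 on TPM, against 76.1% of 11966 protein-coding genes.

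The 5 spindle checkpoint genes spanned a 6.91-fold range, with an adaptor at the top and a kinase at the bottom. Bub3, the kinetochore adaptor that recruits Bub1 and BubR1 (chr7:131560222-131571895, plus strand), had 203 and 195 TPM. Mad2l1, the Mad2 protein that binds Cdc20, had 86.0 and 86.6 TPM, and Bub1b, which encodes BubR1, had 71.6 and 66.2 TPM. Ttk, the Mps1 kinase that starts the signal, was lowest with 28.3 and 29.3 TPM, below Bub1 at a mean of 45.9 TPM. Bub3 was 7.18-fold and 6.65-fold above Ttk in replicates 1 and 2, and the class median was 68.9 ± 3.82 TPM.

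The genes of anaphase onset were the most spread. Ube2c, the ubiquitin-conjugating enzyme of the anaphase promoting complex (chr2:164769898-164778822, plus strand), had 400.02 and 416 TPM, the highest TPM of the 57. Cdc20, the activator that the checkpoint holds back, had 222 and 207 TPM. Securin, Pttg1, which inhibits separase until anaphase, had 32.1 and 37.2 TPM, and separase itself, Espl1 (chr15:102296266-102324357, plus strand), had 13.3 and 10.1 TPM. Ube2c stood 30.01-fold above Espl1 in replicate 1 and 41.3-fold in replicate 2 on TPM, and 12.5-fold and 17.2-fold rescaled. The inhibitor Pttg1 was above its target in both libraries on TPM. Rescaled it had 12.7 and 15.3 TPM, below Espl1 in replicate 1 and above it in replicate 2. The rescaled Pttg1 is a low bound, as its longest coding model Pttg1-204, of 1674 bases, had 16.2 and 44.2 counts. Coding models held 99.1% of the TPM of Pttg1. The class median of 125 ± 3.42 TPM lies in the gap between Ube2c and Cdc20 above and Pttg1 and Espl1 below.

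The chromosomal passenger complex corrects wrong attachments and later marks the spindle midzone, and 3 of its 4 genes exceeded 100 TPM before rescaling. Birc5, which encodes survivin, had 194 and 199 TPM. Cdca8, encoding borealin, had 144 and 146 TPM, and the kinase gene Aurkb had 125 and 117 TPM. The scaffold gene Incenp was lowest with 51.2 and 47.1 TPM. Subunits that form 1 complex thus differed up to 4.00-fold in mean TPM, and the class median was 133 ± 2.31 TPM. Rescaled, the median was 81.6 TPM, and Birc5, at 55.8 TPM, lay below Cdca8 and Aurkb and near Incenp. The rescaled Birc5 is a low bound, as its longest coding model Birc5-202, of 3334 bases, had 421 and 457 counts.

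Centromere and kinetochore genes formed the largest class, and most of them were low. Cenpa, the histone H3 variant that marks the centromere (chr5:30666777-30674830, plus strand), had 194 and 195 TPM. Spc25 had 169.3 and 186 TPM, and Cenpf, a large coiled-coil protein of the outer kinetochore, had 102 and 96.1 TPM, or 29.3 and 26.9 TPM rescaled. The remaining 8 genes lay below 70 TPM in both libraries. Cenpn, which reads the Cenpa nucleosome, was lowest with 25.6 and 22.8 TPM, next to the kinetochore kinesin gene Cenpe at a mean of 25.2 TPM, and the gap between these neighbours was within their spread (SD 1.97 and 0.834 TPM). The class median was 42.3 ± 5.09 TPM.

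The Ndc80 complex, the microtubule-binding rod of the kinetochore, is built from Ndc80, Nuf2, Spc24 and Spc25, and its genes were unequal. Means were 178 ± 11.6 TPM for Spc25, 65.2 ± 2.38 TPM for Spc24, 54.5 ± 2.18 TPM for Nuf2 and 35.8 ± 1.70 TPM for Ndc80 (SD, n = 2). Spc25 was 4.58-fold above Ndc80 in replicate 1 and 5.37-fold in replicate 2, far beyond the difference between the libraries. Cenpk, Cenph and Cenpw, of the inner kinetochore, had means of 31.3, 28.4 and 42.3 TPM.

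Genes of the spindle and cytokinesis had a median of 83.3 ± 0.948 TPM. Tacc3, which cross-links spindle microtubules, had 160 and 155 TPM, and its partner Ckap5, a microtubule polymerase, had 153 and 148 TPM. Racgap1, a subunit of the centralspindlin complex of the midzone, had 158 and 149 TPM. These 3 were the highest of the class on TPM in both libraries. The midzone bundler Prc1 had a mean of 129 TPM. Rescaled, Racgap1 led with a mean of 140.5 TPM, followed by Prc1 with 118.9 TPM and Tacc3 with 104.5 TPM, while Ckap5 had 61.2 TPM. Lower genes on TPM were the Aurka activator Tpx2 at 83.3 TPM and Ect2, which activates the furrow, at 56.1 TPM. Anln, the anillin scaffold of the contractile ring, was lowest with 14.0 and 13.6 TPM.

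Condensin genes were above cohesin genes on TPM, and by less on the other length scales. Smc2, 1 of the pair of ATPase subunits of condensin, had 178 and 182 TPM, and its partner Smc4 had 147 and 146 TPM. The condensin I subunit Ncapd2 had 131 and 121 TPM, and Ncapg was lowest with 48.5 and 44.2 TPM, giving a class median of 126 ± 6.63 TPM. In cohesin, Smc1a had 98.6 and 99.3 TPM, Smc3 73.4 and 71.8 TPM and the kleisin gene Rad21 51.9 and 51.6 TPM. The alternative subunit genes Stag1 and Stag2 were lowest, with Stag2 at 37.5 and 33.3 TPM and a mean of 42.9 TPM for Stag1, and the class median was 51.8 ± 0.177 TPM. With coding models only, the condensin median was 59.1 TPM and the cohesin median 49.4 TPM, and rescaled they were 60.2 and 51.8 TPM. The rescaled Smc2 had 44.9 and 46.3 TPM, below the 47.1 TPM of Ncapg in replicate 1 and above its 43.7 TPM in replicate 2.

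Top2a, the topoisomerase that untangles sister chromatids (chr11:98992943-99024189, minus strand), had 230.6 and 231 TPM. Mki67, whose protein coats mitotic chromosomes and is the common proliferation marker Ki-67, had 33.9 and 31.7 TPM. Top2a was 6.80-fold and 7.29-fold above Mki67 in replicates 1 and 2. The transcription factors that act on G2 and M phase genes were at the low end. Foxm1 had 35.6 and 35.7 TPM and Mybl2, the B-Myb subunit that joins the MuvB complex, 22.8 and 20.6 TPM.

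Gene TPM is the sum over transcript models, and short non-coding models raised it in some genes. TPM was at least 2 times the rescaled level in 8 of the 57 genes, against 9.12% of 8342 protein-coding genes at 10 TPM or more. These were Smc2 (3.94 times), Birc5 and Cenpf (3.52 times each), Cdk1 (3.45 times), Pttg1 (2.47 times), Ckap5 (2.46 times), Ube2c (2.40 times) and Smc4 (2.26 times).

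The models behind these ratios differed by gene. For Ube2c, 99.8% of TPM was on the coding model Ube2c-202 of 967 bases, and the longest model of 2191 bases had 37.0 and 50.8 counts, so the rescaled 170 TPM is a low bound. The same held for Birc5, with 97.0% on Birc5-201 of 947 bases and a rescaled level of 55.8 TPM. For Smc2, in contrast, 59.1% of TPM came from Smc2-203, a processed transcript of 643 bases without a coding frame, with 1302 and 1384 counts. The longest coding model Smc2-201, of 5404 bases, took 2890 and 3241 counts but only 24.5 and 25.2 TPM.

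**Figure D3:**
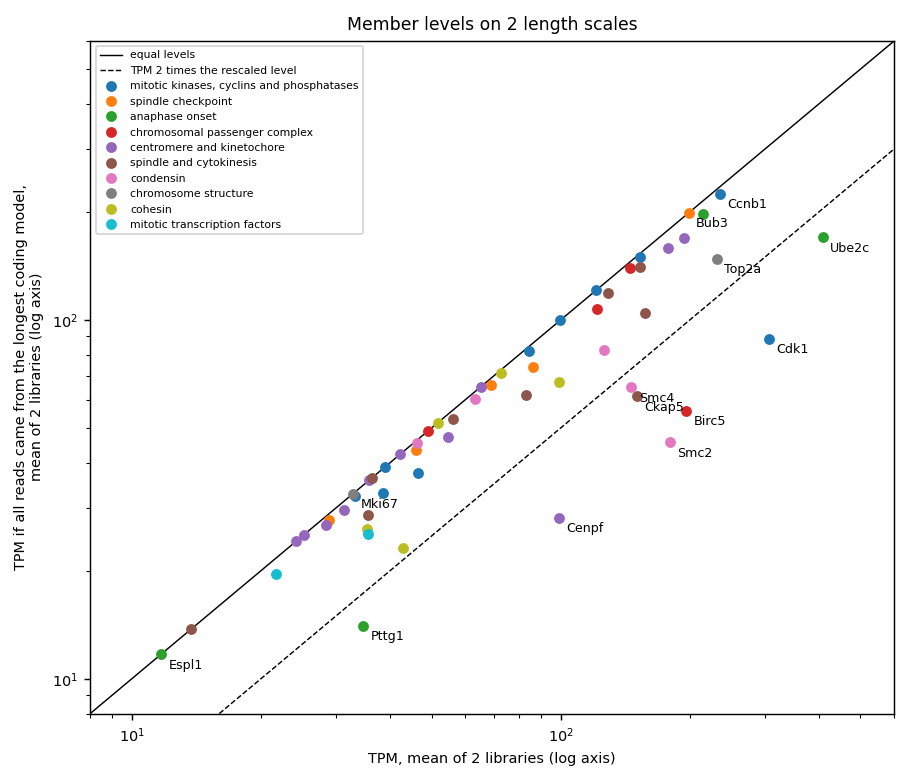
Mean TPM over both libraries (x axis, log) against the rescaled level, all reads over the longest coding model (y axis, log), for the 57 genes coloured by role. The solid line marks equal levels and the dashed line a TPM of 2 times the rescaled level, beyond which lie the 8 genes Smc2, Birc5, Cenpf, Cdk1, Pttg1, Ckap5, Ube2c and Smc4.

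On the rescaled level the order of the genes was similar but not the same (Spearman's rho 0.899 across the 57 genes). Ccnb1 led with 224 TPM, followed by Bub3 with 199 TPM, Cdc20 with 197 TPM, Ube2c with 170 TPM and Cenpa with 169.5 TPM. Cdk1 moved to rank 16 with 88.6 TPM, which is a low bound, and 6 genes moved by more than 10 ranks. The lowest remained Espl1 at 11.7 TPM, Anln at 13.8 TPM and, in place of Mybl2, Pttg1 at 14.0 TPM, a low bound.

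Differences between classes were computed in each library from class medians of log2(TPM + 1), with cohesin, which is also used outside division, as the common base. The SD covers the spread between the libraries, not that among the genes of a class. The passenger complex was above cohesin by 1.34 ± 0.023 on TPM, the widest gap on that scale, and by 0.57 ± 0.012 on the rescaled level. The rescaled value includes the low bound for Birc5, and with coding models only the difference was 1.21. Kinases, cyclins and phosphatases were above it by 0.81 ± 0.060 on TPM and 0.71 ± 0.026 rescaled, and the checkpoint genes by 0.41 ± 0.074 and 0.34 ± 0.088. Each of these 3 differences was larger than its spread between the libraries on both scales.

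Condensin and the spindle genes depended more on the scale. Condensin was above cohesin by 1.27 ± 0.071 on TPM and by 0.21 ± 0.041 on the rescaled level, and the spindle and cytokinesis genes by 0.68 ± 0.011 and 0.20 ± 0.068. Anaphase onset was 0.73 ± 0.044 above cohesin on TPM and turned to -0.05 ± 0.092 rescaled. The rescaled difference does not exceed the spread and includes the low bounds for Ube2c and Pttg1. With coding models only, anaphase onset was 0.70 above cohesin. Centromere and kinetochore genes were below cohesin by either scale, at -0.29 ± 0.17 on TPM and -0.52 ± 0.062 rescaled. Checkpoint genes were above centromere and kinetochore genes by 0.70 ± 0.091 on TPM and 0.86 ± 0.027 rescaled. With means of log2 values in place of medians, the kinetochore difference from cohesin was -0.072 and checkpoint minus kinetochore was 0.36, so both rest partly on the choice of summary. With coding models only, spindle and cytokinesis genes were 0.071 above cohesin.

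Pairs of genes from the same complex or family showed which ratios rested on the length scale. Ccnb1 exceeded Ccnb2 by 1.97-fold in replicate 1 and 1.93-fold in replicate 2 on TPM, and by 1.88-fold and 1.83-fold rescaled. Aurkb exceeded Aurka by 1.46-fold and 1.43-fold on TPM, and by 1.33-fold and 1.30-fold rescaled. Plk1 exceeded Plk4 by 2.62-fold and 2.56-fold on TPM, and by 3.04-fold and 3.01-fold rescaled. These 3 pairs kept their order in both libraries on both scales, as did Spc25 over Ndc80 with 4.07-fold and 4.81-fold rescaled and Top2a over Mki67 with 4.43-fold and 4.59-fold rescaled.

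Other ratios did not keep their size or direction. Smc2 over Ncapg was 3.66-fold and 4.12-fold on TPM but 0.953-fold and 1.06-fold rescaled. Birc5 over Incenp was 3.78-fold and 4.23-fold on TPM, and 1.08-fold and 1.201-fold rescaled. The rescaled ratio is itself a low bound, as the rescaled Birc5 is one. Within cohesin, Smc3 over Smc1a was 0.744-fold and 0.723-fold on TPM, and 1.06-fold and 1.07-fold rescaled. Stag1 over Stag2 was 1.13-fold and 1.30-fold on TPM, and 0.867-fold and 0.913-fold rescaled, so which of these paralogues was higher depended on the scale.

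Transcript models were examined next, by their share of the gene TPM averaged over both libraries. Coding models held 82.0% and 81.6% of the summed TPM of the 57 genes in replicates 1 and 2, and 92.4% and 92.1% of their counts. The rest of the TPM lay on retained introns (7.12% and 6.73%), processed transcripts (6.16% and 6.70%), models marked for nonsense-mediated decay (4.46% and 4.70%) and other models (0.252% and 0.257%). A single model was annotated for 15 genes, against 1983 of 8356 protein-coding genes at 10 TPM or more. Among the 15 were Bub3, Ccnb2, Plk1, Incenp, Rad21, Ndc80, Mki67 and Espl1. Coding models held under 50% of TPM in 4 genes, against 8.86% of protein-coding genes at 10 TPM or more, namely Smc2 (27.6%), Ckap5 (31.4%), Cenpa (38.7%) and Smc1a (49.9%).

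The leading transcript held under 60% of TPM in 15 genes, against 31% of protein-coding genes at that level. In 3 of them (Cenpa, Smc2 and Ckap5) it was not a coding model, against 7.66%. Cenpa-202, marked for nonsense-mediated decay, had 81.4 and 82.4 TPM, against 75.9 and 71.1 TPM for the coding Cenpa-205. Ckap5-205, a processed transcript of 696 bases, had 80.6 and 84.1 TPM, against 51.2 and 42.5 TPM for the coding Ckap5-204 of 6665 bases, which nevertheless held 7471 and 6766 counts. The split of reads between overlapping models is an estimate of the authors' counting, and short models turn few reads into many TPM.

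In Cdk1 the coding Cdk1-202 held 50.8% of TPM, and the retained introns Cdk1-204 and Cdk1-203 held 23.0% and 22.7%. In Top2a the coding Top2a-201 held 58.2% of TPM, with 15604 and 16388 of the gene's counts. In Smc1a the coding Smc1a-201 had 50.9 and 47.9 TPM, against 45.0 and 47.1 TPM for Smc1a-206, a decay model. In Smc4 the short coding Smc4-206 of 1163 bases led with 57.8%, and in Cenpf the 3001-base Cenpf-203 led with 43.0% over the 11130-base Cenpf-204 with 14.8%. In Ncapd2 the full-length Ncapd2-201 held 59.96%. The leading model of each of these 6 genes was the same in both libraries.

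The remaining genes with a divided TPM mostly spread it over coding models. Tpx2-202 held 33.4% and Tpx2-201 21.2%, Prc1-206 held 54.96% and Prc1-202 24.6%, and Ect2-202 held 59.8% and Ect2-207 26.9%. Stag1-206 held 33.4% beside a retained intron, Stag1-212, with 18.5%, and Stag2-201 held 56.4%. Pttg1 alone had a different leading transcript in each library, against 4.46% of protein-coding genes at 10 TPM or more. Its Pttg1-203 had 19.5 and 13.5 TPM and its Pttg1-202 had 11.5 and 19.2 TPM in replicates 1 and 2, from 446 and 585 counts on the gene, the fewest in each library.

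**Figure D4:**
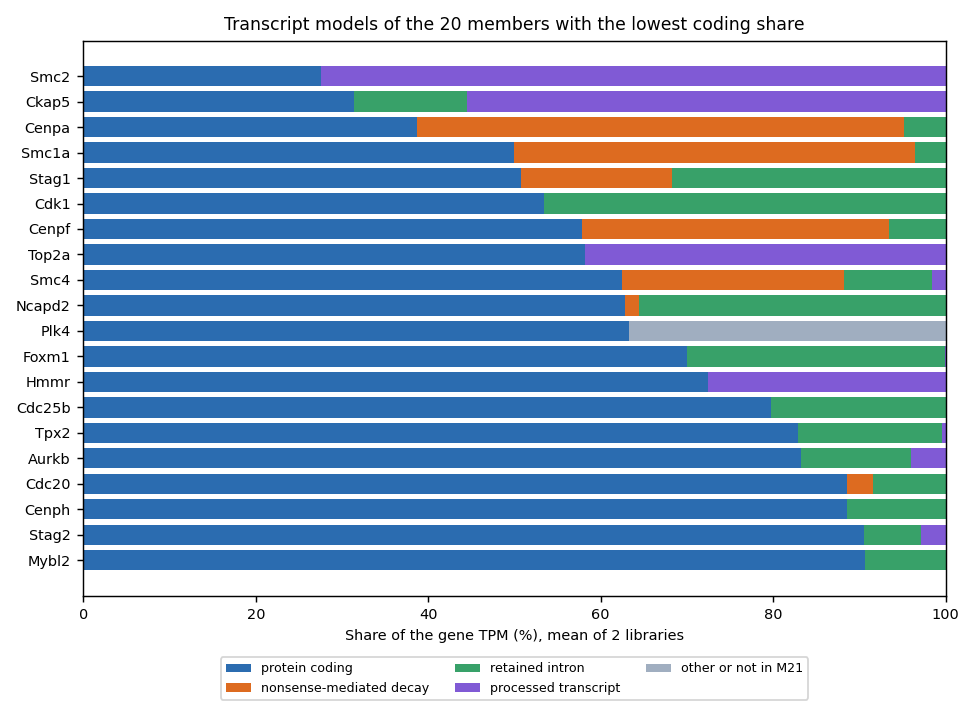
Share of the gene TPM (percent, mean of both libraries) on coding models, decay models, retained introns, processed transcripts and other models, for the 20 genes with the lowest coding share. Smc2 is lowest with 27.6% on coding models, followed by Ckap5 with 31.4% and Cenpa with 38.7%.

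The libraries were compared by the log2 ratio of TPM + 1, replicate 1 over replicate 2, for genes with a mean count of at least 100. The median over the 57 genes was 0.07, against 0.10 over 11966 protein-coding genes. Replicate 1 was higher for 41 of 57 genes (71.9%), against 76.1% of all genes. A gap of 1.2-fold or more in favour of replicate 1 was found in 1 gene (Espl1), against 13.4% of all, and in favour of replicate 2 in 0, against 2.24%. None of the 57 differed by 2-fold, against 0.217% of all genes higher and 0% lower in replicate 1. The deposited TPM intervals of both libraries were apart for 17 of 57 genes, against 30.3% of all. With counts scaled by TMM, the method of edgeR, the median was -0.05, against -0.01 over all genes, with Espl1 higher and Pttg1 and Spc25 lower by 1.2-fold or more in replicate 1, against 5.22% of all genes higher and 5.24% lower. The same 3 genes passed with DESeq2 size factors, against 5.16% higher and 5.32% lower.

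The widest gaps in favour of replicate 1 were those of Espl1 (13.3 against 10.1 TPM, log2 ratio 0.37), Cenpw (45.9 against 38.7 TPM, 0.24), Cdc25b (50.2 against 42.8 TPM, 0.23), Nek2 (35.7 against 30.5 TPM, 0.22) and Bub1 (49.0 against 42.9 TPM, 0.19). In favour of replicate 2 they were those of Pttg1 (32.1 against 37.2 TPM, -0.21), Spc25 (169.3 against 186 TPM, -0.13), Cenpe (24.6 against 25.8 TPM, -0.06), Ube2c (400.02 against 416 TPM, -0.06) and Ttk (28.3 against 29.3 TPM, -0.05). The deposited intervals were apart for the first 5 genes and for Spc25, and overlapped for Pttg1, Cenpe, Ube2c and Ttk. An interval need not hold the TPM given here: those of Ube2c ended at 398.6 and 414.9 TPM in replicates 1 and 2, below its TPM.

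Markers of some other cell types moved between the libraries more than these genes did, and those of others less. The median log2 ratio was 0.58 for choroid plexus and 0.23 for erythroid markers, against 0.07 for the 57 genes. It was 0.11 for neuron markers, 0.09 for mural and meningeal, 0.01 for progenitor, 0.01 for microglial and -0.0017 for endothelial markers. The 5 choroid plexus markers summed to 472 and 247 TPM in replicates 1 and 2, with Ttr at 420.0 and 217 TPM. The 6 erythroid markers summed to 5760 and 4912 TPM, led by Hbb-y at a mean of 3317 TPM, while Gata1 was at 0.265 TPM. The 7 progenitor markers summed to 2419 and 2442 TPM and the 6 neuron markers to 2383 and 2248 TPM. Their part in the differences above was not tested.

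**Figure D5:**
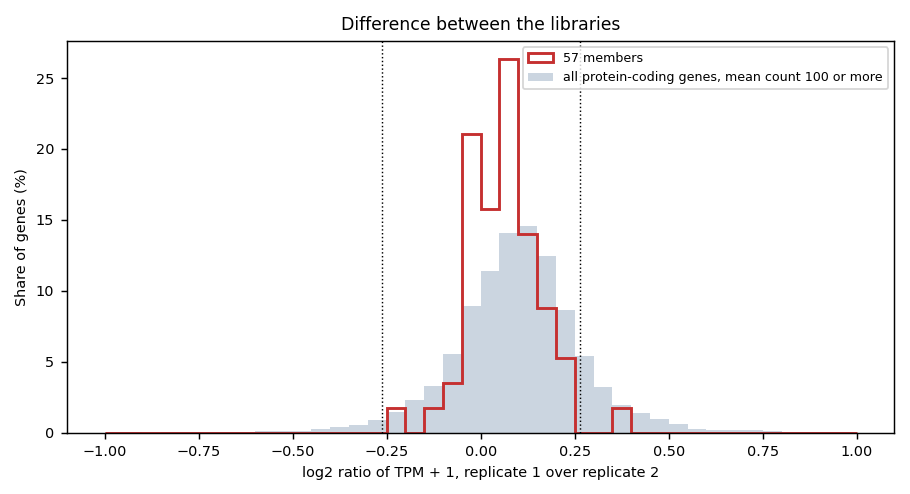
Distribution of the log2 ratio of TPM + 1, replicate 1 over replicate 2, for the 57 genes (red outline) and all 11966 protein-coding genes with a mean count of at least 100 (grey), as a share of genes in percent, with dotted lines at 1.2-fold. All of the 57 lie between -0.21 and 0.37, with Espl1 alone past a dotted line.

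Other genes of the pathway were drawn from lists of roles. Of 103 further mitotic genes, 95 reached 10 TPM in each library, with a median of 34.3 ± 0.516 TPM. The anaphase promoting complex, the ubiquitin ligase that Ube2c and Cdc20 serve, had all 17 genes at 10 TPM or more, and 9 of them reached 100 TPM in each library. The median of the complex was 101 ± 4.57 TPM, and 61.6 ± 4.26 TPM rescaled. Its highest genes were the subunit gene Anapc5 (359.6 TPM) and the second conjugating enzyme gene Ube2s (318 TPM), and Anapc10 was lowest at 20.5 TPM. Of 18 regulators of mitotic entry and exit, 15 reached 10 TPM, with a median of 26.1 ± 1.43 TPM. The Cdk-binding proteins Cks1b (293 TPM) and Cks2 (259 TPM) led, and the phosphatase gene Cdc14b was lowest at 2.77 TPM.

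Of 32 other kinetochore genes 31 reached 10 TPM, with a median of 31.5 ± 1.48 TPM, from Zwint (413 TPM, or 269.8 TPM rescaled) and Hjurp (120.5 TPM), the chaperone of Cenpa, to Kntc1 (8.13 TPM). Of 12 mitotic kinesins 9 did, with a median of 25.2 ± 2.04 TPM, from Kif22 (108 TPM) and Kif2c (59.1 TPM) to Kif14 (3.76 TPM). All 13 genes of condensin II and of cohesin regulation did, with a median of 23.5 ± 1.33 TPM, from Ncaph2 (132 TPM) and Mau2 (48.6 TPM) to Ncapg2 (13.4 TPM). Of 11 genes of the DREAM and MuvB complexes, which act on CHR promoters, 10 did, with a median of 38.1 ± 0.997 TPM. Rbbp4, a histone-binding protein shared with other complexes, led with 452 TPM (206 TPM rescaled), followed by Tfdp1 with 137 TPM, and Lin54, the subunit that contacts the CHR, was low at 10.4 TPM.

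Meiotic counterparts were nearly absent. Of 11 such genes, 8 were under 1 TPM in both libraries and none reached 10 TPM, with a median of 0.06 TPM. The cohesin gene Rec8 was highest at 7.78 ± 0.396 TPM, and Stag3 followed at 2.25 ± 0.375 TPM (1.36 TPM rescaled). Sycp1 and Meikin had no count, which allows up to 0.0404 and 0.0371 TPM for Sycp1 and 0.0991 and 0.0909 TPM for Meikin in replicates 1 and 2, from 3 counts and for counting error only. The mitotic genes other than cohesin stood 5.99 ± 0.027 log2 units above this list, a difference that the pseudocount of 1 makes smaller.

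Genes of DNA replication were somewhat higher than the mitotic genes. Their median was 89.9 ± 4.97 TPM over 20 genes, all at 10 TPM or more, led by Rrm2 (343 TPM) and Pcna (269 TPM), with Pola1 lowest at 13.0 TPM. The mitotic genes other than cohesin, with a median of 67.1 ± 3.10 TPM, were -0.40 ± 0.015 log2 units from them on TPM and -0.51 ± 0.065 on the rescaled level, and -0.19 on TPM with means of log2 values. The first pair of differences exceeded their SDs. Of 8 cyclins and kinases of G1 the median was 58.1 ± 4.45 TPM, from Cdk4 (1995 TPM, or 772 TPM rescaled) and Ccnd2 (340.3 TPM) to Cdk6 (21.1 TPM). Markers of postmitotic neurons were far higher than the mitotic genes, which were at -2.18 ± 0.017 log2 units from them on TPM and -2.10 ± 0.027 rescaled.

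Markers of the other cell types in the dissected tissue were mostly low. Medians were 10.9 TPM over 5 endothelial markers (Cldn5 highest at 40.7 TPM), 4.86 TPM over 5 microglial markers (C1qb highest at 16.4 TPM) and 8.5 TPM over 5 mural and meningeal markers (Col3a1 highest at 82.8 TPM). Blood and vessel cells also divide at this age, and their part in the levels of the mitotic genes was not tested.

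Some levels could be touched by reads that belong to more than 1 feature. An estimated count that was not whole, to within 0.01 of a read, was found in 11 of the 57 genes, against 29.9% of protein-coding genes at 10 TPM or more. They were Ube2c, Ccnb1, Top2a, Cdc20, Ccna2, Ncapd2, Plk1, Ncapg, Plk4, Foxm1 and Nek2. Processed pseudogenes and other copies of at least 90% identity over at least 80% of their length were found for 16 of the 57. No such search was made over all genes, so this count has no share beside it. Many of the 25 copies were not quantified, among them Gm8416 (97.3% identical to Ccnb1), Gm9742 (94.1% to Plk4) and AC151284.1 (93.7% to Ube2c). Reads from unquantified copies could fall on the 57 genes, which was not tested. The quantified copies with counts were low. Ccnb1-ps, 99.2% identical to Ccnb1, had 1.96 and 1.33 TPM, Gm12856, another copy of Ccnb1, 0.26 and 0.07 TPM, Gm7856, a copy of Cdc20, 0.13 and 0.21 TPM, Plk-ps1 0.59 and 0.39 TPM, and Gm19898, a copy of Cenpw, 0.59 and 0.81 TPM.

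Exons of 17 of the 57 genes overlap those of another gene, 13 of them on the opposite strand and 4 on the same strand. The share over all genes was not computed, so the count is no trait of these genes. The sources used here do not say if reads were counted by strand, so reads in such overlaps could be assigned to either gene. The opposite neighbours at 10 TPM or more in both libraries were led by Exosc9, which shares 510 bases with Ccna2 and had 84.0 and 72.2 TPM, Lcorl, which shares 944 bases with Ncapg and had 42.9 and 35.9 TPM, and Tmem129, which shares 289 bases with Tacc3 and had 32.5 and 27.6 TPM. Elovl1 shares 53 bases with Cdc20 and had 20.4 and 19.8 TPM, and Rccd1 shares 911 bases with Prc1 and had 14.4 and 12.1 TPM. The other two were 9930104L06Rik, opposite Cdca8, with 13.9 and 11.5 TPM, and Spef1, opposite Cdc25b, with 10.6 and 10.3 TPM. Tnnc2, which shares 592 bases with Ube2c, had 0.19 and 0 TPM, so Ube2c, the highest of the 57 on TPM, had almost no expressed neighbour there.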

How the data were processed

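Total RNA libraries of forebrain were grouped by the labels into 1 group of 2. The authors quantified transcriptome alignments on mm10 with GENCODE M4, per the file headers and accompanying metadata. The aligner and tool version are not named there. The deposited expected counts are estimated counts in which shared reads are divided. The deposited TPM and FPKM values were scaled by the authors for length and library size, TPM over all rows including spike-ins. The deposited interval bounds of TPM are treated as signal with no stated level and served to see overlap. Symbols, classes and coordinates came from GENCODE M21 (42462 of 43346 mouse genes matched by identifier).

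Levels are means with SD, and class levels are medians. Ratios used a pseudocount of 1 and a mean count of at least 100. Scalings used edgeR 4.0.16 (TMM) and DESeq2 1.42.0 on rounded counts in R 4.3.3. Copies of transcripts were sought with BLAST 2.17.0, and the rest ran in Python 3.11.15 with numpy 2.4.6, pandas 2.3.3, scipy 1.17.1 and matplotlib 3.10.9. The ratio was tested on simulated counts of the 2 libraries over 11966 genes: folds of 1.2, 1.5 and 2 came out as 1.199, 1.48 and 1.94. Promoter windows are the first listed RefSeq window per gene. For 41 of 47 the end of the window was found in the early part of a GENCODE transcript of the gene. This checks the orientation and does not show that both starts are the same.

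The members and lists were chosen with earlier results of these data known. By the rule for named genes, both library values are given for the 3 highest genes and the lowest of each class and for the 5 widest gaps each way, with the 2 highest and the lowest of each pathway list, the highest marker, and genes with a divided TPM. Gene pairs, Ndc80 subunits and overlapping neighbours were picked once their values were known. Alternatives were other TPM estimates, FPKM, thresholds, pseudocounts, summaries, scalings, motif settings and leaving out each library, and 2 length scales added after the data were seen. Older symbols in the lists were matched once, under the current name.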

Additional observations from a re-analysis of the deposited data

How the results depend on the processing

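The class and member medians moved by more than the spread between the libraries mainly with the length scale and with the summary. With coding models only, medians were 51.985 TPM for all members, 112 for anaphase onset, 117 for the passenger complex, 51.985 for spindle and cytokinesis, 59.1 for condensin, 83.7 for chromosome structure, 49.4 for cohesin and 22.3 for the transcription factors. The passenger complex was then 1.21 log2 units above cohesin, spindle and cytokinesis 0.071 and condensin 0.25. The members other than cohesin were -0.54 from DNA replication, -2.28 from neuron markers and 5.73 from meiotic genes.

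With reads over the longest coding model, medians were 53.0 TPM for all members, 85.2 for kinases, cyclins and phosphatases, 92.0 for anaphase onset, 81.6 for the passenger complex, 35.8 for kinetochore genes, 61.2 for spindle and cytokinesis, 60.2 for condensin, 90.4 for chromosome structure and 22.4 for the transcription factors. Differences from cohesin were 0.71 for kinases, 0.57 for the passenger complex, -0.52 for kinetochore genes, 0.20 for spindle genes and 0.21 for condensin. The passenger complex values include the low bound for Birc5. Anaphase onset reversed to -0.045, with low bounds for Ube2c and Pttg1, against 0.70 with coding models only. Checkpoint minus kinetochore was 0.86, and the members other than cohesin were -0.51 from DNA replication, -2.10 from neuron markers and 5.69 from meiotic genes.

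With the mean of log2 values, class levels were 87.6 TPM (kinases), 78.3 (anaphase onset), 114 (passenger complex), 53.5 (kinetochore), 70.1 (spindle), 99.5 (condensin), 87.6 (chromosome structure), 56.3 (cohesin) and 27.8 (transcription factors). Differences from cohesin were 0.63 (kinases), 0.29 (checkpoint), 0.47 (anaphase onset), 1.01 (passenger complex), -0.072 (kinetochore), 0.31 (spindle) and 0.81 (condensin). Checkpoint minus kinetochore was 0.36, and the members other than cohesin were -0.19 from DNA replication, -1.70 from neuron markers and 5.57 from meiotic genes. Posterior mean TPM gave 81.96 for spindle, 129 for chromosome structure, 50.5 for cohesin, 0.69 for spindle minus cohesin and 5.90 for the meiotic difference, which was 8.63 with a pseudocount of 0.1 and 4.38 over genes at 1 TPM or more.

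The median library difference reversed with TMM (-0.050) and with DESeq2 size factors (-0.051), and 3 genes were then 1.2-fold apart in either setting, in place of 1, against 5.22% of all genes higher and 5.24% lower with TMM and 5.16% and 5.32% with DESeq2. The cause of these changes was not tested. FPKM, leaving out either library, thresholds of 5 and 20 TPM and both motif settings changed no direction, but a mean of 2 libraries moves by less than their SD, by construction, when 1 is left out. No paired analysis was possible because there is a single group with no test. The planned search of protein motifs was not run. Depth did not limit the 57 genes, whose lowest count was 446, and it did limit genes near 0.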
